A study of Mus musculus with 4 samples.

Results

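Axon guidance ligands and receptors were followed in tissue of the lateral habenula, part of the epithalamus through which the forebrain reaches dopamine and serotonin neurons. The members were all protein-coding genes of the semaphorin, plexin, neuropilin, ephrin, Eph, Slit, Robo, netrin, netrin-G, Unc5 and Dcc families, matched by symbol, with at least 10 counts summed over the 4 libraries. This gave 69 of the 53465 gene identifiers in the deposited count matrix. Ntn5, with 2 counts in all, was left out by the minimum, and Efna4, with 8, 9, 11 and 9 counts in the 4 libraries, was the member with the fewest. The identifier that the annotation gives for Ntn3 was not analysed here.

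Poly(A) RNA was sequenced from lateral habenula tissue of C57BL/6 mice, with 2 libraries for group housing and 2 for social isolation. The labels name no genotype, allele or drug for either group, and give no age, sex or length of isolation. They do not tell single animals from pools, so the p-values cover the spread between these samples alone, which may be technical. Total counts ranged from 20897605 to 26428152 per library, and the members held 0.425, 0.428, 0.451 and 0.448% of the counts. Here and below, 4 values stand for group-housed replicates 1 and 2, then isolated replicates 1 and 2. Markers of the habenula were present. The 2 given here are from a list of 11 for the lateral habenula. Over that list 6 had a fitted log2 fold change, isolated against group-housed, above 0 and 5 below. Pou4f1, a transcription factor gene of habenular neurons, measured 136, 130, 162 and 151 CPM (counts scaled to a common, normalised library size), and Gpr151, an orphan receptor gene enriched in the habenula, 397, 352, 426 and 426 CPM.

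Guidance cues steer growing axons by attraction and repulsion, and many stay expressed in the adult brain, where they act on synapses, vessels and glia. Most secreted class 3 semaphorins signal through neuropilins paired with plexins, whereas membrane-bound semaphorins mostly bind plexins directly. Slits act on some Robo receptors, netrin-1 on Dcc and Unc5 receptors, and ephrins on Eph receptor tyrosine kinases. The lipid-anchored netrin-G proteins act on NGL partners across the synapse. Neuropilin-2 and Dcc are known for guiding habenular axons into the fasciculus retroflexus, the tract to the midbrain.

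No member passed the test between isolated and group-housed libraries in either direction. Over the 17528 genes tested by quasi-likelihood in edgeR, 0.0114% were called higher and 0% lower at a Benjamini-Hochberg adjusted p under 0.05. Robo3 came nearest, with 119, 125, 168 and 187 CPM. At an unadjusted p under 0.05, 8 of 68 tested members lay higher and 1 lower, against 2.83% and 2.26% of all tested genes. DESeq2 called Robo3 alone among the members, higher, where it called 0.29% of its genes higher and 0.0691% lower. Limma-voom called 0 members.

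The promoter windows of the 4 members with the smallest unadjusted p (Robo3, Sema3e, Nrp2 and Unc5b) are printed here to show the sequence upstream. None of these 4 genes passed in edgeR's test. They come from RefSeq, build GRCm38.p6, begin 250 bases before the RefSeq start and end before the first base of the gene in the GENCODE annotation. Capitals mark GGGCGG, the core of a GC box, and TAATTA, a core bound by many homeodomain proteins, on either strand.
Robo3, chr9:37433247-37433425, minus strand: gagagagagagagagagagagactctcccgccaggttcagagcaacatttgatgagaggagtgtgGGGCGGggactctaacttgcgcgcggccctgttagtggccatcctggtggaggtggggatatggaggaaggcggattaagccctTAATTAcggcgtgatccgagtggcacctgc
Sema3e, chr5:14025026-14025275, plus strand: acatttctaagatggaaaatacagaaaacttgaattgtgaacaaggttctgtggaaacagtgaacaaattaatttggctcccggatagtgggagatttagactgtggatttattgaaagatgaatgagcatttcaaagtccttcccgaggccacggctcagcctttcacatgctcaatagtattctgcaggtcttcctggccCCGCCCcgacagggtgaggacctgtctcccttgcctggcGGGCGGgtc
Nrp2, chr1:62703067-62703284, plus strand: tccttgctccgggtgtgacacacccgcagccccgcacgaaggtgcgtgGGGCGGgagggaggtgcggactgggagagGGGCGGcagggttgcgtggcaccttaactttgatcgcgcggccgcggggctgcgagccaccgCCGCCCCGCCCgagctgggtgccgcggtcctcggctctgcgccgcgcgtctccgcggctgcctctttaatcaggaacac
Unc5b, chr10:60831582-60831831, minus strand: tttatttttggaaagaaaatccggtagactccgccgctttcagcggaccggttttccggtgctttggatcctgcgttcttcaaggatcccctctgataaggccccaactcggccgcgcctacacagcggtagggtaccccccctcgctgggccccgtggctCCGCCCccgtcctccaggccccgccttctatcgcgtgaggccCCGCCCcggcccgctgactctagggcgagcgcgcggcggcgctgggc

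GGGCGG stood once in the window of Robo3, at 2 places in those of Sema3e and Unc5b and at 4 in that of Nrp2, where the last pair shares 1 base. TAATTA stood only in the Robo3 window among these 4, and TATAAA (the TATA box) and CACGTG (an E-box) in none of them. CG pairs numbered 28 in the 218 bases of Nrp2 and 27 in the 250 bases of Unc5b, but 9 in the 179 bases of Robo3 and 7 in the 250 bases of Sema3e. By symbol, 59 of the 69 members had a window in the RefSeq table, 75 windows in all. Over the full 250 bases, 53 of the 75 (70.7%) held GGGCGG on either strand, 2 (2.67%) TATAAA, 3 (4.0%) TAATTA and 4 (5.33%) CACGTG. The shares over all 32851 windows of that length were 32.7%, 12.4%, 4.84% and 6.02%. Those windows were taken without a filter on gene type or expression, unlike the members. A match in these letters is a description of the sequence, not a bound site.

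Levels differed widely between members, from 0.375 to 266 CPM on average, with 18 members at 100 CPM or more and 8 under 5 CPM. Genes were compared by CPM per kb of exon, with the exons of all annotated transcripts of a gene merged. This length can exceed that of the transcript expressed, which lowers the value, so the ranking is rough. Slit2 has 25433 such bases and Slit1 has 5921. On this scale the ephrin gene Efnb3 stood first at 71.2. Next came the class 6 semaphorin gene Sema6b (30.5), Plxnc1 (24.5), Nrp2 (22.5) and Robo3 (21.9). The lowest were Sema3a (0.155), Efna4 (0.234) and Epha2 (0.239). The median level was highest in plexins (14.6 CPM per kb over 9 genes) and lower in semaphorins (6.76 over 20), ephrins (4.25 over 8) and Eph receptors (4.09 over 14).

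**Figure D1:**
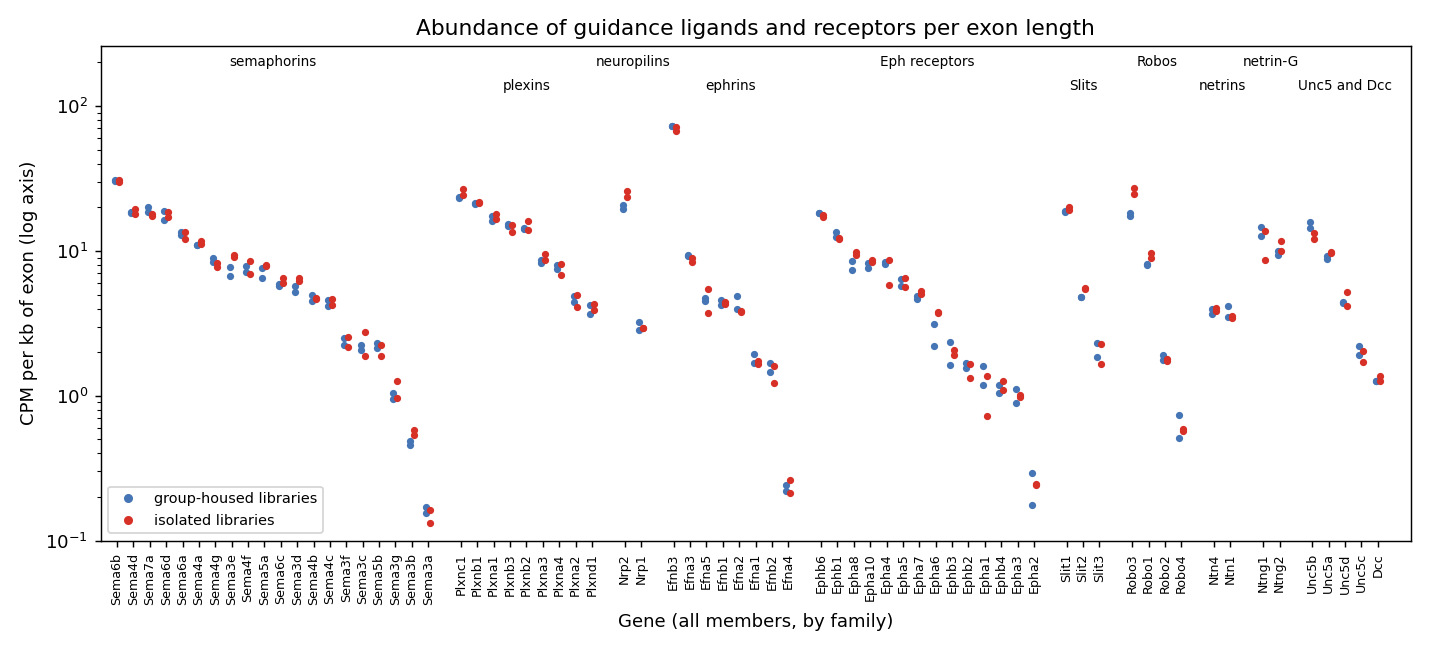
Level of each of the 69 members in CPM per kb of exon on a log axis, grouped by family, with 1 point per library (blue, group-housed; red, isolated). Efnb3 stands above all other members at 71.2 on average, and for most genes the points of both groups lie close together.

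Across the whole list the members were split evenly. The fitted log2 fold change, isolated against group-housed, lay above 0 for 35 of 68 tested members, beside 51.2% of all tested genes. Its median was 0.02 over the members and 0.0033 over all tested genes, and the median size without sign was 0.10 and 0.08. The 4 libraries separated by group for 27 members, with the isolated pair higher for 19 (27.9%) and lower for 8 (11.8%). Over all tested genes these shares were 17.4% and 16.3%. Efna4 had too few counts to be tested.

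**Figure D2:**
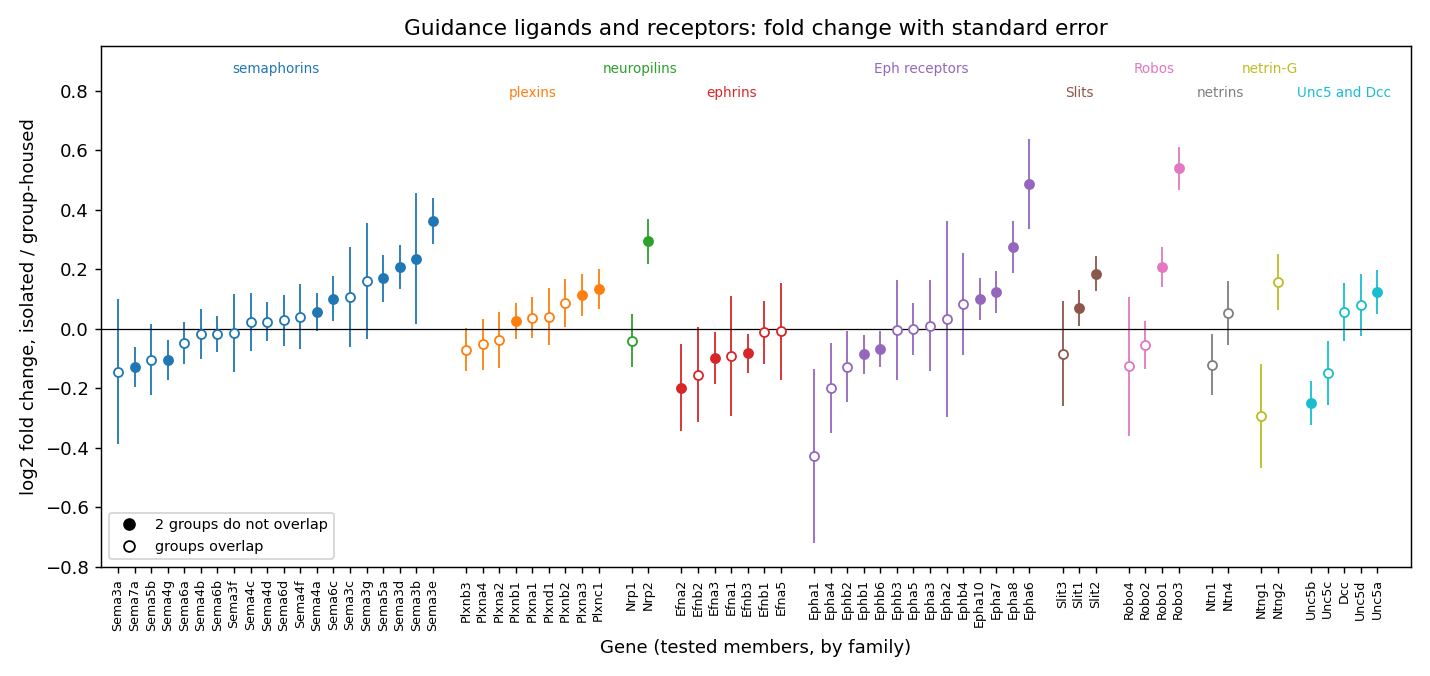
Fitted log2 fold change (isolated over group-housed, 2 libraries per group) of the 68 tested members by family, with bars of 1 standard error from edgeR; filled points mark genes whose 4 libraries separate by group. Robo3 lies highest at 0.54, and all 7 tested ephrins lie below 0.

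Robo3, a divergent Robo receptor that lets commissural axons cross the midline, had the smallest p of all members. Its isolated libraries, at 168 and 187 CPM, stood above the group-housed pair, at 119 and 125 CPM. The group-housed mean was 122 ± 4.54 CPM and the isolated mean 177 ± 13.1 CPM (SD, n = 2), a fold of 1.45. Its log2 fold change was 0.54 (SE 0.07) with an edgeR quasi-likelihood adjusted p = 0.123 and an unadjusted p = 4.92e-05. Over the 10 alternative analyses the log2 fold change stayed between 0.46 and 0.61, and the adjusted p between 2.20e-05 (DESeq2) and 0.579 (edgeR, without group-housed replicate 2). Without isolated replicate 1 the edgeR adjusted p was 0.0032, and with no filter on low counts it was 0.0337. Robo3 (ENSMUSG00000032128) spans bases 37415669 to 37433246 of chromosome 9, minus strand on GRCm38, and no exon of another annotated gene overlaps its exons.

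The other Robo genes and the Slit genes differed less. Robo1, a main Slit receptor of forebrain axons, measured 134, 132, 160 and 147 CPM, with no overlap between groups and a log2 fold change of 0.21 (SE 0.07; edgeR adjusted p = 0.788). Its ligand gene Slit2 measured 123, 122, 139 and 140 CPM, so replicates lay within about 1 CPM of each other and the groups apart (log2 fold change 0.18, SE 0.06; edgeR adjusted p = 0.788). Slit1, the most abundant Slit per exon length at 19.1 CPM per kb, measured 110, 111, 118 and 113 CPM. Robo2 (29.9, 32.3, 30.4 and 29.5 CPM), the endothelial Robo4 (2.73, 3.93, 3.01 and 3.13) and Slit3 overlapped between the groups. Robo4 is the neighbour of Robo3, on the plus strand from 37401897 to 37415115. The 4 Robo genes summed to 286, 294, 362 and 366 CPM, of which Robo3 and Robo1 made up most.

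Among the semaphorins 12 of 20 had a fitted log2 fold change above 0, the family median was 0.03, and 0 passed in edgeR's test. Sema3e, a secreted semaphorin that binds plexin-D1, measured 71.8, 62.5, 87.5 and 84.7 CPM. The isolated pair stood higher without overlap, with means of 67.2 ± 6.62 and 86.1 ± 1.96 CPM (SD, n = 2). The log2 fold change was 0.36 (SE 0.08), with an edgeR adjusted p = 0.369. Its receptor gene Plxnd1 measured 27.0, 30.9, 28.4 and 31.2 CPM, with overlapping groups. Sema3e (ENSMUSG00000063531) spans bases 14025276 to 14256689 of chromosome 5, plus strand. Without group-housed replicate 2 its log2 fold change was 0.25.

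Of the other class 3 semaphorins, Sema3d measured 45.0, 49.2, 56.0 and 52.9 CPM, with the groups apart (log2 fold change 0.21, SE 0.07; edgeR adjusted p = 0.863). Sema3b lay apart too, at 2.34, 2.18, 2.55 and 2.76 CPM, with a log2 fold change of 0.23 and a wide SE of 0.22. Sema3c, Sema3f, Sema3g and Sema3a overlapped between groups. The class as a whole summed to 152, 150, 185 and 173 CPM, and 5 of its 7 members had a fitted value above 0.

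Among the membrane-bound semaphorins, Sema5a, a transmembrane guidance cue, had the largest log2 fold change. It measured 142, 122, 150 and 146 CPM, with the groups apart (0.17, SE 0.08; edgeR adjusted p = 0.979). Sema6b, the most abundant semaphorin per exon length, measured 120, 123, 122 and 118 CPM, and Sema6d and Sema4d, both above 130 CPM in each library, overlapped between groups. Sema7a, a lipid-anchored semaphorin that can act on integrins and plexin-C1, measured 66.3, 61.7, 59.2 and 57.6 CPM. Its isolated libraries lay below the group-housed ones by a log2 fold change of -0.13 (SE 0.07; edgeR adjusted p = 0.979). The plexin-C1 gene Plxnc1 (196, 194, 223 and 204 CPM) lay the other way, at 0.13 (SE 0.07; edgeR adjusted p = 0.979), and had the smallest p of the plexins. Leaving out single libraries moved Sema7a to between -0.19 and -0.078 (the latter without group-housed replicate 1), and Plxnc1 to between 0.069 (without isolated replicate 1) and 0.20. Over the 9 plexins, log2 fold changes ranged from -0.07 to 0.13, with 3 genes apart and higher and 0 apart and lower, beside 17.4% and 16.3% of all tested genes.

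Nrp2 and Nrp1, the co-receptors of most class 3 semaphorins, had different values. Nrp2 measured 247, 232, 308 and 278 CPM, with no overlap between groups and means of 239 ± 11 and 293 ± 20.7 CPM (SD, n = 2). The log2 fold change was 0.29 (SE 0.08), with an edgeR adjusted p = 0.570. Nrp1 measured 31.7, 27.7, 28.9 and 28.8 CPM, a log2 fold change of -0.04 (SE 0.09). The difference between the 2 genes was not tested. Nrp2 (ENSMUSG00000025969) spans bases 62703285 to 62818695 of chromosome 1, plus strand.

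**Figure D3:**
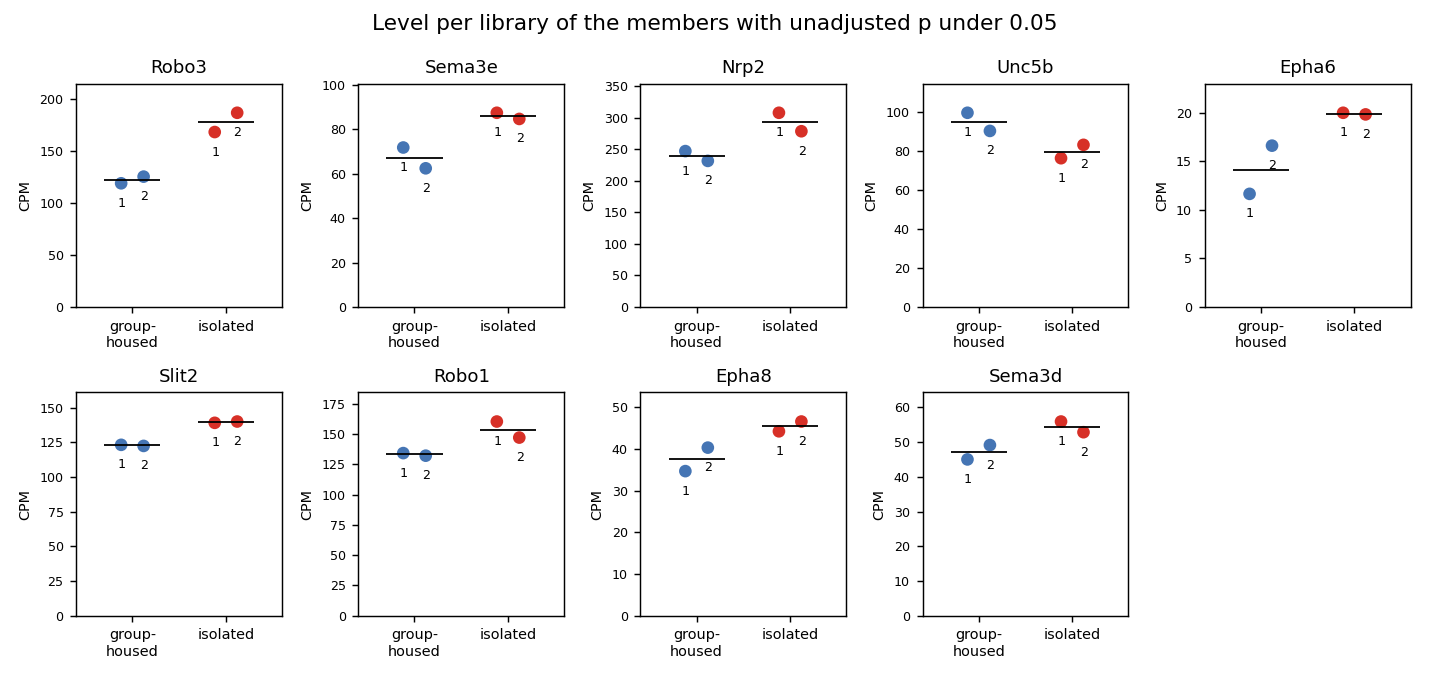
CPM in each library (numbers give the replicate; lines are group means of 2 libraries) for the 9 members with an unadjusted p under 0.05, in order of p, with each axis starting at 0. In all 9 panels the isolated points lie on 1 side of the group-housed points, lower for Unc5b and higher for the other 8.

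All 7 tested ephrins had a fitted log2 fold change below 0, from -0.20 to -0.01, with a median of -0.09 and 0 passing in edgeR's test. For 3 of them, Efna2, Efna3 and Efnb3, the isolated pair stood lower without overlap, beside 16.3% of all tested genes. Efnb3, a transmembrane ligand of EphB receptors and EphA4, measured 233, 234, 213 and 227 CPM (log2 fold change -0.08, SE 0.07), and leaving out isolated replicate 1 or 2 gave -0.037 or -0.13. Efna2 measured 10.3, 8.48, 8.11 and 8.23 CPM (log2 fold change -0.20, SE 0.15; edgeR adjusted p = 0.999), where group-housed replicate 1 stood highest and the other 3 libraries lay close together. Without that replicate the Efna2 value was -0.053. Efna5 and Efnb2 were lowest in isolated replicate 2, at 14.9 and 8.46 CPM. Without that library the family median was -0.02, and without isolated replicate 1 it was -0.15.

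Eph receptors split 7 above and 7 below 0. The EphA receptor gene Epha6 measured 11.6, 16.6, 20.0 and 19.8 CPM, with the groups apart and a log2 fold change of 0.49 (SE 0.15; edgeR adjusted p = 0.78). Its group-housed replicates differed by 0.51 on the log2 scale, so its fold change ran from 0.26 to 0.76 as single libraries were left out. Of its exons, 107 bases overlap the antisense gene Gm9017, and whether counting used strand is not stated. Epha8 measured 34.7, 40.3, 44.3 and 46.6 CPM, again with the groups apart (log2 fold change 0.27, SE 0.09; edgeR adjusted p = 0.789), and a value of 0.17 without group-housed replicate 1. Epha7 and Epha10 were apart and higher as well, by log2 fold changes of 0.12 and 0.10. The kinase-inactive Ephb6, the most abundant Eph receptor per exon length, measured 68.8, 69.0, 65 and 66.4 CPM, and Ephb1 94.1, 87.3, 85 and 85.7 CPM. These were the 2 Eph receptors whose isolated libraries lay below the group-housed ones, by log2 fold changes of -0.07 and -0.09.

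Netrin receptors included the member with the smallest p among those lower in isolated libraries. Unc5b, a repulsive netrin receptor also found on vessel tip cells, measured 99.4, 90.1, 76.1 and 83.0 CPM. The isolated pair stood lower without overlap, with means of 94.7 ± 6.56 and 79.6 ± 4.83 CPM (SD, n = 2). The log2 fold change was -0.25 (SE 0.07), with an edgeR adjusted p = 0.758. Unc5b (ENSMUSG00000020099) spans bases 60762593 to 60831581 of chromosome 10, minus strand. Unc5a measured 38.5, 36.4, 41.1 and 40.4 CPM, apart and higher by a log2 fold change of 0.12 (SE 0.07). Unc5c, Unc5d and Dcc, the attractive netrin receptor gene at 16.7, 16.6, 17.9 and 16.7 CPM, overlapped between groups. The netrin genes themselves overlapped too, Ntn1 at 26.1, 21.9, 22.4 and 21.6 CPM and Ntn4 at 14.9, 13.7, 15.2 and 14.5 CPM.

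Ntng1 encodes netrin-G1, which binds the NGL-1 protein of Lrrc4c, and it varied more within the isolated group than between the groups. Its levels were 104, 121, 112 and 71.4 CPM, so isolated replicate 2 stood alone as the low library. The log2 fold change was -0.29 (SE 0.17; edgeR adjusted p = 0.979). Without isolated replicate 1 it was -0.66 (edgeR adjusted p = 0.0067), and without isolated replicate 2 it was -0.0049. Epha4, a receptor for both ephrin classes, showed the same layout at 67.9, 65.8, 69.6 and 46.8 CPM. Its log2 fold change was -0.20 (SE 0.15), -0.52 without isolated replicate 1 (edgeR adjusted p = 0.0144) and 0.06 without isolated replicate 2. Ntng2 measured 37.3, 40.0, 39.6 and 46.7 CPM, highest in the library where Ntng1 was lowest.

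Gaps between replicates were of about the size of the differences between groups. Over the 61 members with a mean of at least 5 CPM, replicates 1 and 2 differed by a median of 0.11 on the log2 scale within each group. Over the 68 tested members the median size of the log2 fold change between groups was 0.10. In the isolated group 9 of these members were lower in replicate 2 by more than 0.3 and 0 higher by that much, whereas in the group-housed group 2 lay each way. The widest gaps in the isolated group were those of Ntng1 (-0.65, replicate 2 over replicate 1), Epha4 (-0.57), Sema3c (-0.55), Efna5 (-0.55) and Slit3 (-0.47). In the group-housed group they were those of Ephb3 (-0.53) and Epha6 (0.51).

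**Figure D4:**
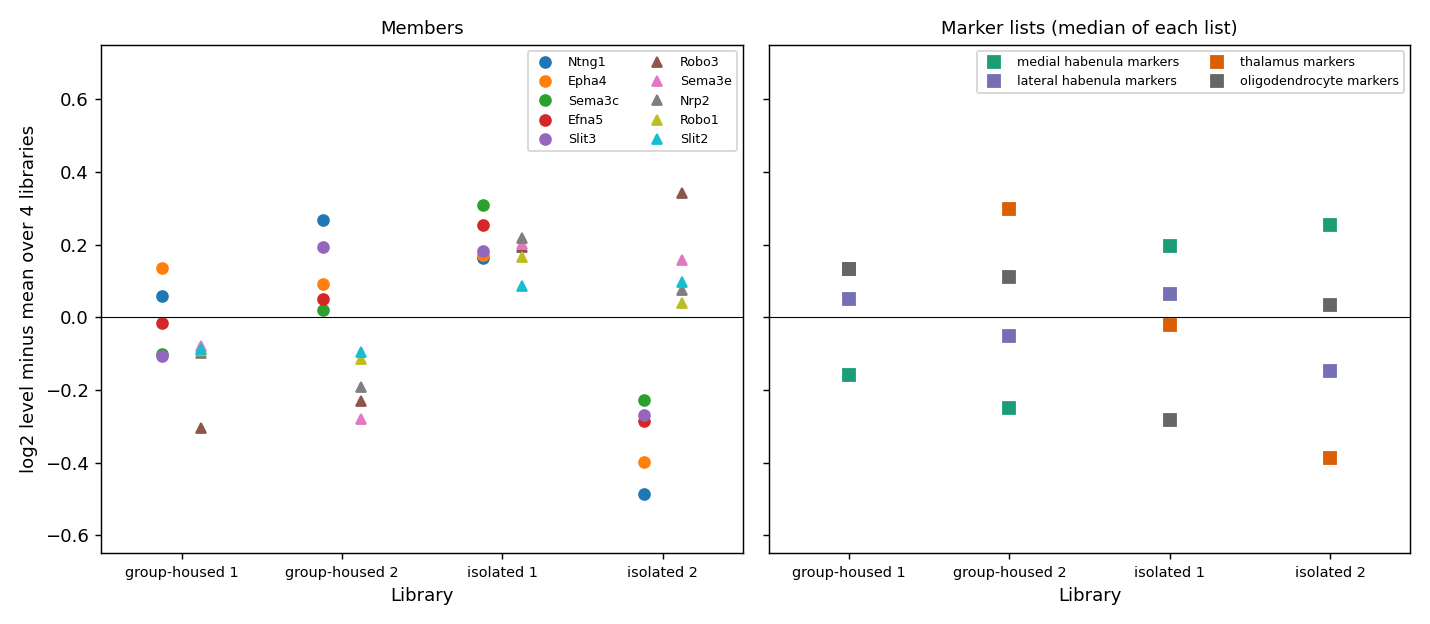
Left, log2 level (CPM plus 0.5) of 10 members in each library relative to the gene's mean over the 4 libraries. Circles are the 5 members with the widest gap between isolated replicates, among members with a mean of at least 5 CPM. Triangles are 5 members whose groups lie apart, all of them higher in the isolated pair. Other members with groups apart, such as Unc5b (lower) and Epha6 (higher), are not shown. Right, median of the same quantity over 4 marker lists; thalamus markers are lowest, at -0.39, in isolated replicate 2, and medial habenula markers are higher in both isolated libraries.

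Markers of neighbouring tissue and of other cell types also differed between the libraries. For the medial habenula, which adjoins the lateral habenula, 11 of 12 markers had a fitted value above 0, and they summed to 1736 to 1821 CPM in the group-housed pair and 2172 to 2197 CPM in the isolated pair. Both genes called higher among all genes, Slc5a7 and Chrnb3, were on this list. It was drawn up with earlier results of these data known, so their place on it is not independent evidence. Robo3, Nrp2, Sema3e, Robo1 and Slit2 also lay higher in both isolated libraries. They are named here because they lay higher there, so the shared direction carries no information. Within the isolated pair the medial habenula sum was 2172 CPM in replicate 1 and 2197 CPM in replicate 2. Robo3 and Slit2 were also higher in replicate 2, and Nrp2, Sema3e and Robo1 in replicate 1. For the thalamus, 13 of 15 markers lay below 0, with sums of 1542 to 1656 CPM and 1309 to 1517 CPM, the lowest in isolated replicate 2, where Ntng1 and Epha4 were lowest. All 12 oligodendrocyte markers lay below 0, with sums of 13393 to 14362 CPM and 10894 to 12839 CPM, and the lowest sum was in isolated replicate 1, where Unc5b was lowest. No marker of these 3 lists was at 0. The lateral habenula markers lay above 0 for 6 of 11, with sums of 2004 to 2119 CPM and 1925 to 2209 CPM. Markers of hippocampus and cortex summed to 464, 470, 529 and 560 CPM, with 6 of 9 tested above 0. For 5 the groups were apart and higher, beside 17.4% of all tested genes. All 7 tested ependymal markers lay above 0, with sums of 61.5, 57.0, 61.6 and 127 CPM, highest in isolated replicate 2. All 10 microglial and 9 of 10 astrocyte markers lay below 0. In each list 7 were apart and lower, beside 16.3% of all tested genes. The microglial sums were 359 to 396 CPM in the group-housed pair and 340 to 346 CPM in the isolated pair, and the astrocyte sums 4922 to 5267 CPM and 4721 to 4734 CPM. Of oligodendrocyte precursor markers, 7 of 8 lay below 0. Of endothelial markers, 5 of 9 lay above 0 and 4 below, with sums of 139, 136, 133 and 153 CPM. The part of these markers in the values of the members was not tested, and in bulk tissue fewer cells of a type and less RNA per cell cannot be told apart.

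Of 70 partner genes of these pathways, 0 passed in edgeR's test, and 27 had a fitted log2 fold change above 0 and 43 below (median -0.03), beside 51.2% of all tested genes above 0. At an unadjusted p under 0.05, 4 lay higher and 4 lower, beside 2.83% and 2.26% of all tested genes. Vav2, which acts downstream of Eph receptors, measured 117, 113, 147 and 154 CPM. Its isolated libraries lay above the group-housed ones, by a log2 fold change of 0.38 (SE 0.06; edgeR adjusted p = 0.178), and DESeq2 called it higher. The related Vav3 measured 130, 127, 165 and 149 CPM (0.29, SE 0.07; edgeR adjusted p = 0.489), the receptor scaffold gene Grip1 35.2, 33.3, 40.2 and 41.0 CPM, and Rgmb, a ligand of neogenin, 118, 117, 137 and 125 CPM. In the other direction, Chn2, a Rac GTPase-activating protein gene, measured 70.3, 69.1, 60.3 and 54.7 CPM (-0.28, SE 0.07; edgeR adjusted p = 0.570). Tiam1 (45.9, 48.3, 41.7 and 35.3 CPM), the Nogo receptor partner gene Lingo1 (98.6, 111, 93.7 and 81.7) and the kinase gene Pak1 (213, 216, 194 and 186) also lay lower in both isolated libraries. The NGL partners of the netrin-G proteins differed in sign, Lrrc4c at 0.14 (SE 0.06) and Lrrc4 at -0.19 (SE 0.08), and the slit-robo GTPase-activating protein genes Srgap1, Srgap2 and Srgap3 overlapped between the groups.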

How the data were processed

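Per the submitters' processing notes, which name no order or role, CASAVA, TopHat2 2.1.1, HTSeq and edgeR were used with the genome build GRCm38. The library kit was a stranded poly(A) kit, per the labels' protocols. The sources used here give neither the annotation release nor whether counting used strand. The authors deposited raw read counts per Ensembl gene, 1 column per library, and these were used for every test. The normalised signal the authors deposited per library was each count times a constant of that library (largest relative deviation 8.65e-09) and was used only for that check.

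Symbols, positions, exon lengths and exon overlaps came from GENCODE M21 (GRCm38), which matched 53360 of 53465 identifiers. Exons of 17 members overlap those of another gene, 13 of them of an antisense gene. The groups were compared by the 2-sided quasi-likelihood test of edgeR 4.0.16 in R 4.3.3, with TMM factors (0.983 to 1.020), the default low-count filter (17528 genes left), no covariate and Benjamini-Hochberg adjustment at 0.05. CPM use TMM-scaled library totals, at which 3 counts are 0.113 to 0.146 CPM. Standard errors are the log2 fold change over the root of the F statistic. The test had 2 residual degrees of freedom and a median prior of 6.55, estimated from all tested genes. DESeq2 1.42.0, limma-voom (limma 3.58.1), other scaling and filters, a replicate block and leaving out each library were the alternatives. The test was also tried on counts simulated at the dispersion of this fit. It recovered 43 of 67 genes (64.2%) with a true fold of 1.5 and 64 of 67 with a true fold of 2. A further 66 genes carried a true fold of 4. So many changed genes can ease the adjusted threshold, whereas the real data had 2 genes called. These shares therefore do not give the power of the test on the real data. An exact permutation test of 2 against 2 libraries could not reach 0.05.

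Members and lists were chosen with earlier results of these data known. Members were named for an adjusted or unadjusted p under 0.05, the smallest p or highest level per exon length of a family, or one of the 8 largest fold changes per direction at 5 CPM or more. Partners were named at an unadjusted p under 0.05. Other members, and the NGL and slit-robo partner genes, are named to complete a family and were picked with their values seen.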

Additional observations from a re-analysis of the deposited data

How the results depend on the processing

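The median log2 fold change of the members (0.02) moved by less than the replicate spread in all 10 alternatives, from -0.0095 (isolated replicate 1 left out) to 0.04 (group-housed replicate 1 left out). The count of members called higher, 0 in the edgeR quasi-likelihood test (8 at an unadjusted p under 0.05), was 1 with DESeq2, 1 with no filter on low counts (Robo3 in both) and 0 to 1 as single libraries were left out. The count called lower, 0 (1 unadjusted), was 0 to 2, the 2 being Ntng1 and Epha4 without isolated replicate 1. At an unadjusted p under 0.05 the counts ran from 4 to 12 higher and 0 to 9 lower over these omissions, while the shares of all tested genes ran from 1.74 to 5.29% higher and 1.59 to 4.33% lower. The 9 lower and the highest shares both came without isolated replicate 1. Fits with a lone library in a group assume that it varies like the other group. Over all genes, calls numbered 2 higher and 0 lower in that test, 42 and 10 with DESeq2, 15 and 0 with no filter, 52 and 12 with the replicate block and 151 and 70 without isolated replicate 1. Partner genes called, 0 in that test (8 unadjusted), numbered 1 with DESeq2 and 0 to 1 over the omissions, Vav2 each time.

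Replicate numbers are shared between the groups in the labels, but nothing says that they pair the samples, and with 2 pairs the correlation of replicate differences was 0.15 across genes. With the number as a replicate block edgeR called 2 members higher (Robo3 and Sema3e), 0 lower and 1 partner (Vav2), with 3 members lower at an unadjusted p under 0.05. Of 23 named members, 6 changed sign in an alternative, each when 1 library was left out. Leaving out isolated replicate 1 or 2 gave -0.040 or 0.0035 for Sema6b, -0.35 or 0.018 for Efnb2, -0.52 or 0.059 for Epha4 and -0.29 or 0.022 for Ephb2. Leaving out group-housed replicate 1 or 2 gave 0.0068 or -0.25 for Ntn1 and 0.11 or -0.017 for Ntn4. The cause was not tested. Depth limits the 7 tested members under 5 CPM, whose standard errors were 0.20 to 0.33.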
